A study of Homo sapiens with 6 samples.

Results

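Collagen and laminin genes were examined for open chromatin at their start sites and along their bodies in MDA-MB-231 cells with and without SAP30. The genes were the 56 protein-coding genes, of 20098 on chromosomes 1 to 22 and X, that carry a collagen chain symbol (COL, a number, A and a number) or a laminin chain symbol (LAMA, LAMB or LAMC and a digit) in GENCODE release 44. They were 11 fibrillar collagen genes, 18 basement membrane genes (6 of collagen IV and 12 of laminin) and 27 other collagen genes. MDA-MB-231 is a widely used line of human breast cancer cells without estrogen receptor, progesterone receptor or HER2. Open chromatin was mapped by ATAC-seq, in which Tn5 transposase inserts sequencing adapters into accessible DNA, in 3 parental and 3 SAP30-KO1 libraries. SAP30-KO1 is an MDA-MB-231 line in which SAP30, a core subunit of the SIN3 corepressor complex, was knocked out with CRISPR/Cas9, and the line is a mix of several single knockout cells. No treatment at the time of the assay was described for either group, and the study describes serum-containing medium for MDA-MB-231 cells. Knockout cells had earlier gone through delivery of a guide RNA vector and selection with puromycin. The comparison was with parental cells, not with a scrambled control line. A list of summits cannot show whether SAP30 protein was lost, so the genotype labels were not checked.

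Collagens are trimers of α chains wound into a triple helix. Fibrillar collagens build the striated fibers of stroma, bone, skin and cartilage. FACIT collagens sit on the surface of these fibers, and transmembrane collagens span the plasma membrane. Collagen VI forms beaded filaments, collagen VII anchors epithelia to the underlying stroma, and multiplexins lie next to basement membranes. Collagen IV networks and laminin trimers of an α, a β and a γ chain are the main sheets of the basement membrane, which carcinoma cells cross during invasion. The 6 collagen IV genes lie as 3 head-to-head pairs, so that 1 summit between a pair of starts can belong to both genes.

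The open sites that the results turn on are shown first, from the hg19 reference, each read 5′ to 3′ on the strand of its gene and centered on the strongest summit. Capitals mark matches to GGAATG (the TEAD site, on its other strand CATTCC). COL12A1 and COL7A1 carried strong summits close to a canonical start in every library, and for COL12A1 only the bases before the transcript are given. LAMA1 carried the strongest promoter summit of the basement membrane genes. The site in COL15A1 was the strongest in a gene body, and those in COL11A1 and COL4A2 were found in SAP30-KO1 alone and in parental cells alone.
COL12A1 start, chr6:75915770-75915846: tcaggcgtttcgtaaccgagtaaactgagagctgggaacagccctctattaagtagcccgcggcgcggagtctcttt
COL7A1 start, chr3:48633209-48633359: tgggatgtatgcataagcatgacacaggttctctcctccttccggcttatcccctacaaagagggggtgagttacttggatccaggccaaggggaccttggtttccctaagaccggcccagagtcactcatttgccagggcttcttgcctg
LAMA1 intron 53, chr18:6960913-6961063: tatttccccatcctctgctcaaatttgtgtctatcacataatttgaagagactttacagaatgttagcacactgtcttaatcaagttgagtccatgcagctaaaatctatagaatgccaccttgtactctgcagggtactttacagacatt
COL15A1 intron 5, chr9:101751867-101752017: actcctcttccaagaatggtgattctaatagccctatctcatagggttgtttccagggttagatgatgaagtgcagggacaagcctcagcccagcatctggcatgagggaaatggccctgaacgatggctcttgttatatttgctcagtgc
COL11A1 intron 42, chr1:103407118-103407268: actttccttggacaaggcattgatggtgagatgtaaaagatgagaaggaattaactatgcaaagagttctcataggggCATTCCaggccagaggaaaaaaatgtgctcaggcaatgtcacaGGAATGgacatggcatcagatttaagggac
COL4A2 intron 17, chr13:111098268-111098418: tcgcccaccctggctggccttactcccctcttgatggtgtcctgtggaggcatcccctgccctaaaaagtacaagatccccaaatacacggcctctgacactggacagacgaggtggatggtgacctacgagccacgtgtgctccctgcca

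Each library has its own list of peak summits, between 29762 and 40650 long, and gives each summit the −log10 of its q value as a score. The longest list was that of SAP30-KO1 replicate 2. Scores were turned into a rank, the percentile of the summit's score within its own library from 0 to 100, and a gene's promoter rank was that of its strongest summit within 1 kb of any annotated start, or 0 where there was none. Read counts were not analysed here, so the depth behind a summit is unknown, and a missing summit means only that no peak passed the caller's threshold. The mesenchymal markers VIM and CD44 had a promoter summit in all 6 libraries. AXL and ZEB1 had one in 3 libraries each, and the luminal genes ESR1 and PGR in 1 library each, GATA3 in 5, FOXA1 in 2 and ERBB3 in 4. The leukocyte genes PTPRC and CD3E and the endothelial gene CDH5 had none.

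First, the genes were ordered by how many libraries had a promoter summit. Of the 56 genes, 11 (19.6%) had one in all 6 libraries, 19 had one in 1 to 5 libraries and 26 (46.4%) had none. Of all protein-coding genes, 34.7% had a promoter summit in all 6 libraries and 37.5% had none. Collagen and laminin genes are long, with a median of 124.9 kb, and among protein-coding genes of 100 kb or longer 48.7% had a promoter summit in all 6 libraries, against 28.1% of the 32 collagen and laminin genes of that length. Of the genes with any promoter summit, 63.3% of collagen and laminin genes and 44.6% of all genes had it in only some of the libraries.

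Open promoters were most frequent among the basement membrane genes, with 14 of 18 open in any library against 5 of 11 fibrillar and 11 of 27 other genes. Of all protein-coding genes 62.5% were open in any library. SAP30-KO1 replicate 2, with the longest list, held all 14, and each other library held 8 or 9 of the 18. In all 6 libraries a promoter summit was found for 6 of the 18 basement membrane genes, 1 of the 11 fibrillar genes and 4 of the 27 other genes, and none was found in any library for 4, 6 and 16 genes, in the same order. All 6 collagen IV genes had a promoter summit somewhere, but it was present in every library only for COL4A4. COL4A3 had one in 5 libraries, COL4A2 in 2, and COL4A1, COL4A5 and COL4A6 in 1 library each, which was SAP30-KO1 replicate 2 for all 3. The summit of COL4A1 was shared with COL4A2, that of COL4A5 with COL4A6, and the main one of COL4A3 with COL4A4.

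Of the laminin α chains, LAMA1, LAMA2 and LAMA4 had a promoter summit in all 6 libraries, LAMA3 in 1 library and LAMA5 in none. Of the β chains, LAMB2 and LAMB3 had one in 5 libraries each, and LAMB1 and LAMB4 in none. Of the γ chains, LAMC1 had one in all 6 libraries and LAMC3 in none.

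Among fibrillar genes, COL11A1, an α chain of the minor cartilage collagen XI, was the only one with a promoter summit in all 6 libraries. COL1A1, a chain of collagen I, the main collagen of bone and stroma, had one in 3 libraries, COL5A1 and COL27A1 in 2 each and COL24A1 in 1. The genes COL1A2, COL2A1, COL3A1, COL5A2, COL5A3 and COL11A2 had none, so that neither the partner chain of COL1A1 nor the collagen III chain was found open at its start.

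Among the other collagens, 7 of 10 FACIT genes had a promoter summit. COL12A1, COL19A1 and COL21A1 had it in all 6 libraries, COL14A1 in 4, COL16A1 in 3, COL9A2 in 2 and COL9A3 in 1, while COL9A1, COL20A1 and COL22A1 had none. The anchoring fibril gene COL7A1 had one in all 6 libraries, and the short-chain network genes COL8A2 and COL8A1 in 2 and 1, whereas COL10A1 had none. Of the 4 transmembrane collagens only COL13A1 had one, in 5 libraries, and COL17A1, COL23A1 and COL25A1 had none. No promoter summit was found in any library for the 5 collagen VI genes (COL6A1, COL6A2, COL6A3, COL6A5 and COL6A6), the 2 multiplexins (COL15A1 and COL18A1) or the 2 remaining genes, COL26A1 and COL28A1.

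**Figure D1:**
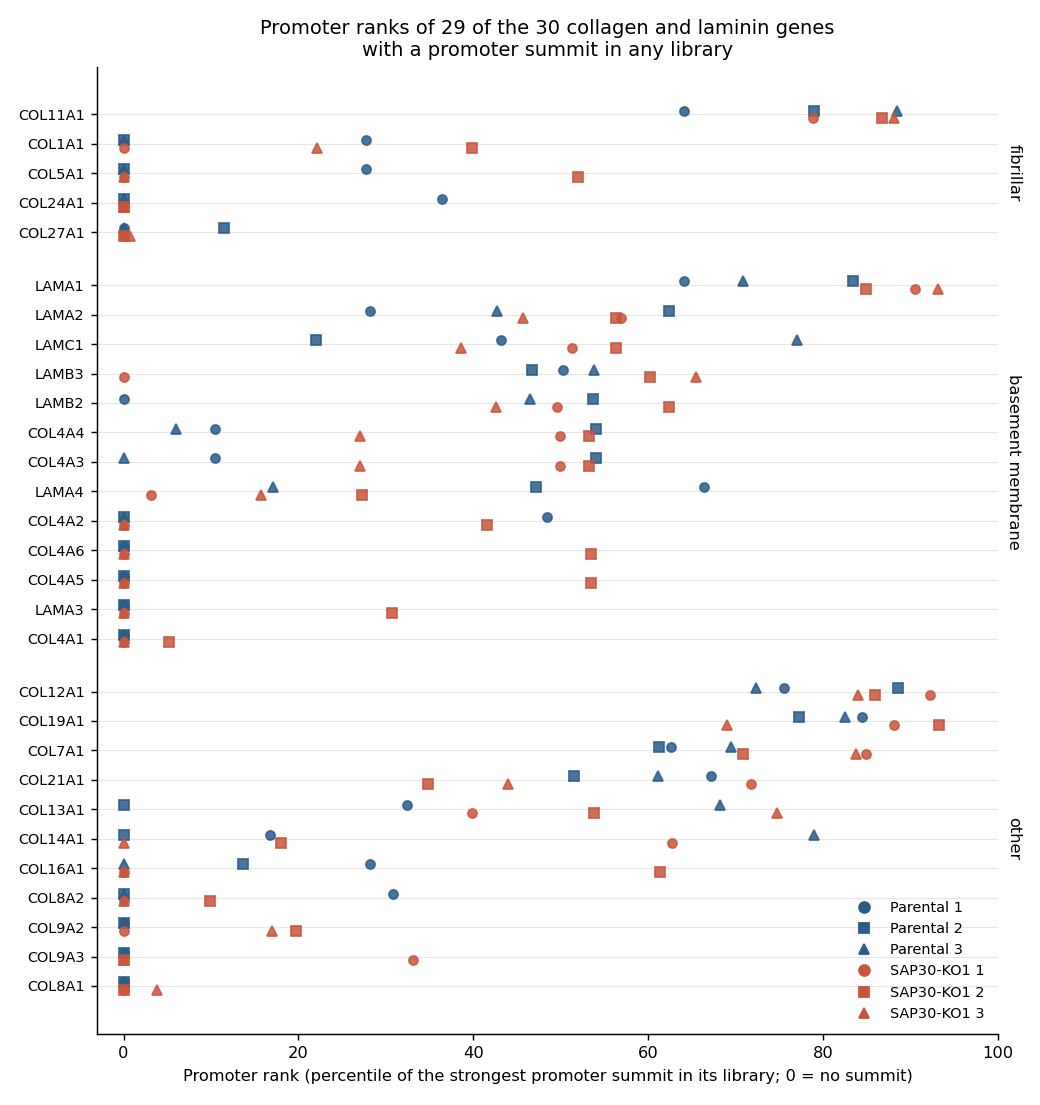
Promoter rank (x axis, percentile within the library, 0 where no summit was found) of 29 of the 30 genes with a promoter summit in any library (y axis), by class, with 1 point per library and blue for parental and red for SAP30-KO1 cells. LAMA1 and COL7A1 are the genes whose 3 red points all lie above the 3 blue ones, and most genes below the top of each class have points at 0.

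The promoter ranks of the strongest genes were high, but several did not rest on the canonical start. COL12A1 had ranks of 75.5, 88.5 and 72.4 in the parental and 92.3, 86.0 and 84.0 in the SAP30-KO1 libraries, at a summit 2 bp before its canonical start. The values of the groups overlapped, since parental replicate 2 lay above 2 of the 3 SAP30-KO1 libraries. LAMC1 had 43.2, 22.04 and 77.0 in parental and 51.3, 56.3 and 38.6 in SAP30-KO1 cells, from summits 793 bp before and 528 bp after its start. The parental values of LAMC1 spread more than its SAP30-KO1 values.

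LAMA4 also had a summit near the canonical start in all 6 libraries, 449 bp downstream in exon 2. Its ranks were 66.4, 47.2 and 17.2 in parental and 3.19, 27.2 and 15.8 in SAP30-KO1 cells, a difference of -28.2 with a standard error of 16.9 and an adjusted p of 0.725 (limma over 6966 genes). Parental replicate 3 lay within the SAP30-KO1 range. When only canonical starts were counted, 5 of the 11 genes kept a promoter summit in all 6 libraries (among them COL7A1, COL12A1, LAMA4 and LAMC1), or 45.5%, against 87.5% over all protein-coding genes and 79.7% over those of 100 kb or longer.

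Each of the other 6 genes had, in at least 1 library, a summit only near the start of another annotated transcript. COL4A4 had a summit within 1 kb of its canonical start in 5 libraries and COL19A1 in 4. LAMA1, LAMA2, COL11A1 and COL21A1 had none there in any library. The LAMA1 summit was in intron 53, 156.8 kb downstream of the canonical start, and that of COL11A1 in intron 66, 228.9 kb downstream. COL21A1 had its summit in intron 17 (156.1 kb downstream) and LAMA2 in introns 56 and 58 (607.4 and 618.6 kb). COL4A4 had a summit in intron 45 in parental replicates 2 and 3, besides the site it shares with COL4A3. The COL19A1 summit, 1.07 kb after its canonical start, was also within 1 kb of a start of LMBRD1, a neighboring gene for a vitamin B12 transporter, and cannot be given to 1 of the 2 genes.

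These sites, of which that of COL19A1 was close to its canonical start and the others distant, ranked in the range of the sites at the starts. COL11A1 had ranks of 64.1, 79.0 and 88.4 in the parental and 78.9, 86.8 and 88.1 in the SAP30-KO1 libraries. COL19A1 had 84.5, 77.2 and 82.6 and then 88.1, 93.2 and 69.1. COL21A1 had 67.2, 51.5 and 61.1 and then 71.7, 34.8 and 44.03, and LAMA2 had 28.2, 62.4 and 42.7 and then 56.9, 56.4 and 45.8. In none of these 4 genes were the groups separate.

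The remaining fibrillar promoters were weak and uneven. COL1A1 ranked at 27.7 in parental replicate 1, 39.9 in SAP30-KO1 replicate 2 and 22.2 in SAP30-KO1 replicate 3, at a summit 1.28 kb after the canonical start that also lay within 1 kb of the start of a long noncoding RNA. COL5A1 ranked at 27.7 in parental replicate 1 and 52.0 in SAP30-KO1 replicate 2, and COL24A1 at 36.5 in parental replicate 1. These 3 genes had no summit in the libraries not named.

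Open promoters in most tissues are rich in CpG dinucleotides, and the sequence within 500 bp of the canonical starts was therefore compared. The median ratio of observed to expected CpG was 0.619 in collagen and laminin genes and 0.726 in 19819 protein-coding genes with a canonical start that could be read. Of 28 collagen and laminin genes with a ratio of 0.6 or more, 2 (7.14%) had a summit within 1 kb of the canonical start in all 6 libraries and 18 (64.3%) in none. Of the 13200 protein-coding genes with such a ratio, 42.8% had one in all 6 libraries and 22.7% in none. The 2 CpG-rich genes with a summit in every library were LAMC1 (0.858) and COL12A1 (0.776).

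Below a ratio of 0.6 the collagen and laminin genes stood closer to other genes, with 3 of 28 (10.7%) open in all 6 libraries and 71.4% in none, against 6.54% and 81.9% of 6619 genes. Of the 18 CpG-rich genes without a summit at the canonical start in any library, COL23A1 (0.891), COL9A3 (0.890), COL25A1 (0.883) and COL15A1 (0.867) had the highest ratios. The 18 also included LAMB1 (0.854), LAMC3 (0.822), LAMA1 (0.803), LAMA5 (0.783), COL18A1 (0.830) and COL8A2 (0.752). COL4A1 (0.860) and COL4A2 (0.865), which share a start region, had one in SAP30-KO1 replicate 2 alone. COL7A1 (0.547) and LAMA4 (0.488) were below a ratio of 0.6 and had a summit there in every library.

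**Figure D2:**
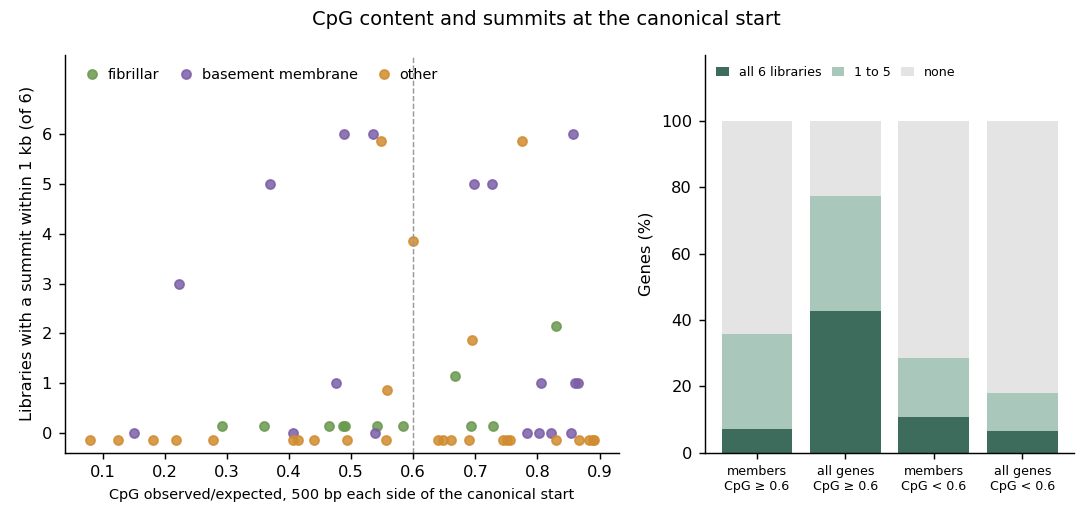
Left, CpG ratio (x axis) of each of the 56 genes and the number of libraries with a summit within 1 kb of its canonical start (y axis, points of the 3 classes set slightly apart). Right, percent of genes with such a summit in all 6, in 1 to 5 or in no library, where 64.3% of CpG-rich collagen and laminin genes and 22.7% of all CpG-rich genes had none.

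Matches to 4 short motifs were counted on both strands. Within 100 bp of the lead summit, GGGCGG (the GC box) was found at 9 of 36 promoter sites of collagen and laminin genes (25.0%) and at 49.7% of the promoter sites of all genes, and CCAAT at 16.7% and 20.3%. TGACTCA (the AP-1 site) was found at 2 of the 36 (5.56%, against 4.52%), and GGAATG at 16.7% against 8.60%. In this set 17 of the 36 promoter sites lay in introns of the canonical transcript, several of them far from its start. Whether this bears on the shares of the motifs was not tested. At the 153 sites in gene bodies TGACTCA was found at 15.0% and GGAATG at 15.7%, near the 16.7% and 16.0% of all 19150 gene body sites. None of the 4 motifs contains another, matches of different motifs can share bases, and a match says only that the letters are present.

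The classes were then compared as mean promoter ranks over all their genes, with genes without a summit at 0. Basement membrane genes averaged 20.6, 27.0 and 22.2 in parental and 22.01, 37.9 and 22.8 in knockout libraries. Fibrillar genes averaged 14.2, 8.22 and 8.04 and then 7.17, 16.2 and 10.1. In parental replicate 3 and SAP30-KO1 replicate 1 that mean came from COL11A1 alone, at its site 228.9 kb from the canonical start. Basement membrane genes lay above fibrillar genes in each of the 6 libraries, by 6.38 to 21.6 points and 14.7 on average. With canonical starts alone the average was 13.4 points, and with promoter summits that also lie inside the gene it was 8.86. Basement membrane genes were also longer, with a median of 148.6 kb against 50.9 kb for fibrillar genes, and the part of length was not tested. The difference is a description, since the libraries share the same genes.

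The other collagen genes averaged 14.7, 10.8 and 16.0 in the parental and 17.5, 16.6 and 13.9 in the knockout libraries, between the fibrillar and the basement membrane genes in each library. All protein-coding genes averaged 28.9 ± 2.37 in the parental group and 29.6 ± 3.48 in the knockout group (SD, n = 3). Mean ranks of all protein-coding genes were thus above those of fibrillar and other collagen genes in every library, and above basement membrane genes in all but parental replicate 2 and SAP30-KO1 replicate 2.

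Next, parental and SAP30-KO1 cells were compared. Over all 56 genes parental libraries had a mean promoter rank of 16.2 ± 0.551 and knockout libraries one of 18.8 ± 3.999 (SD, n = 3). These means differed by 2.61 points, less than the SD of the knockout group. The values were 16.5, 15.5 and 16.4 against 16.9, 23.4 and 16.0, with SAP30-KO1 replicate 2 far above the other 5, and the difference was 0.317 without that library. The differences were 1.01 for fibrillar, 4.28 for basement membrane and 2.15 for other genes. Without SAP30-KO1 replicate 2 that of the basement membrane genes was -0.884 and that of the fibrillar genes -1.52. The site shared by COL4A3 and COL4A4 entered the basement membrane mean for both genes, at 21.9 and 19.9 points higher in SAP30-KO1 cells. That of COL4A5 and COL4A6 also entered it for both, at 17.8 points each, from SAP30-KO1 replicate 2 alone. In the whole class 10 genes had a higher and 4 a lower mean in SAP30-KO1 cells.

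SAP30-KO1 replicate 2 had the longest list and the most genes with a promoter summit, 54.1% of all protein-coding genes against 46.3% to 50.9% in the other libraries. For basement membrane genes it held 14 of 18, against 8 or 9 in each other library. With each library held to its 29762 top-ranked summits, the difference was 1.48 over all 56 genes and 1.497 over basement membrane genes.

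**Figure D3:**
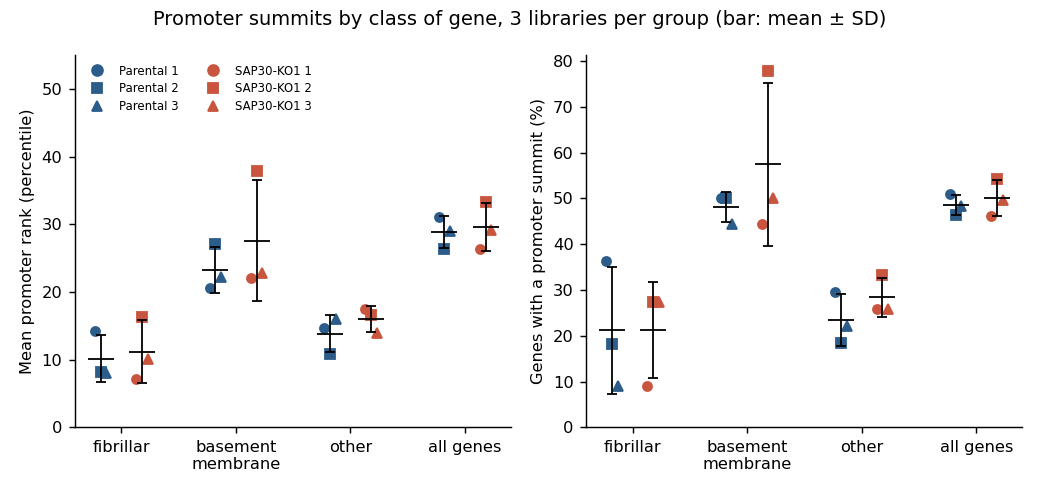
Mean promoter rank (left, percentile) and percent of genes with a promoter summit (right) for each class and for all protein-coding genes, with 1 point per library and the mean ± SD of 3 libraries per group. Basement membrane genes lie above fibrillar genes in each library, and the point of SAP30-KO1 replicate 2 is the highest of its class in both panels for basement membrane genes.

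Promoter ranks of 2 genes did not overlap between the groups, and both were higher in SAP30-KO1 cells. The 2 were among the 30 collagen and laminin genes with any promoter summit, and of all 12564 such genes 6.01% were higher without overlap. None of the 30 was lower without overlap, where 4.58% of all such genes were. LAMA1, the α1 chain of the laminin of early embryos, had ranks of 64.1, 83.5 and 70.9 in the parental and 90.5, 84.9 and 93.1 in the SAP30-KO1 libraries, 16.7 points higher with a standard error of 8.16. COL7A1, the anchoring fibril collagen, had 62.7, 61.2 and 69.4 and then 84.9, 70.9 and 83.8, 15.4 points higher with a standard error of 11.6.

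The exact permutation test, two-sided, gave p = 0.1 for both genes, the smallest that 3 against 3 libraries allow, and an adjusted p of 0.945 over 12564 genes. In limma over the 6966 genes with a promoter summit in every library, LAMA1 had an adjusted p of 0.703 and COL7A1 of 0.784. That fit called 0 of the 11 collagen and laminin genes in it and 0.0% of all genes, with 461 genes and none of the 11 at an unadjusted p under 0.05. Both genes still separated the groups when ranks were taken within the chromosome arm, with differences of 16.0 and 15.3. Neither did when each library was held to its 29762 top-ranked summits, where SAP30-KO1 replicate 2 fell to 79.3 for LAMA1, below the 83.1 of parental replicate 2, and to 60.2 for COL7A1, below the 65.6 of parental replicate 3. The COL7A1 summit lay about 522 bp before the start and outside the gene. With a promoter window of 500 bp its ranks were 62.7, 0 and 69.4 in parental and 0, 70.9 and 0 in SAP30-KO1 cells, so that the difference turned to -20.4, and no summit counted when it had to lie inside the gene.

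LAMA1 was higher at more than 1 of its sites. In intron 11 the ranks were 69.6, 45.9 and 63.2 in the parental and 90.7, 86.4 and 89.9 in the SAP30-KO1 libraries, 29.4 points higher without overlap. In intron 34 a summit was found in the 3 SAP30-KO1 libraries alone, at ranks of 11.1, 39.3 and 81.3, and its sequence held GGGCGG once. The fourth site, in intron 19, had ranks of 8.96 in parental replicate 1 and 13.7 in SAP30-KO1 replicate 2 and was absent elsewhere. No summit was found near the canonical start. The median shift of all sites on the short arm of chromosome 18 was -0.209 points, and whether an arm-wide or local change bears on these differences was not tested.

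The bodies of the genes held most of their open sites, as was so for all protein-coding genes (19150 of 33053 sites). Summits of the 6 libraries, each widened by 250 bp on either side, merged into 189 sites at collagen and laminin genes, of which 36 were at promoters and 153 in gene bodies, more than 1 kb from every start of the gene. Of the gene body sites, 140 lay in introns and 5 in exons of the canonical transcript. A summit in all 6 libraries was found at 29 of the 153 (19.0%, against 23.1% for all genes) and at 10 of the 36 promoter sites (27.8%, against 45.5%). The density was 0.975 summits per 100 kb of gene and library, and 0.872 over all protein-coding genes.

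Per length the classes lay close together, with 0.823 gene body summits per 100 kb in fibrillar, 0.999 in basement membrane and 1.01 in other genes. Among genes of 100 kb or longer the density was 0.972 in collagen and laminin genes and 0.894 in all protein-coding genes. No gene body summit was found in any library for 16 of the 56 genes. Of every 10000 summits in a library, 24.0, 23.6 and 23.8 lay in the bodies of these genes in the parental and 22.8, 26.8 and 23.1 in the SAP30-KO1 libraries. The group means differed by 0.423, within the SD of 2.23 of the knockout group, and this difference was -0.864 without SAP30-KO1 replicate 2.

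Several genes without an open promoter were open along the body. Of the 26 genes without a promoter summit, 8 had a gene body site in all 6 libraries (COL10A1, COL15A1, COL18A1, COL22A1, COL25A1, COL28A1, LAMA5 and LAMB1), a further 10 had one in some libraries, and 8 had neither kind of site. The last were COL1A2, COL5A3, COL20A1, COL6A1, COL6A2, COL6A3, COL6A6 and LAMC3. The strongest gene body site of all was in intron 5 of COL15A1, the gene of a multiplexin, with ranks of 99.3, 98.6 and 99.2 in parental and 99.3, 97.3 and 99.1 in SAP30-KO1 cells. Another in its intron 30 ranked at 86.0 to 98.6.

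COL28A1, which encodes a collagen of peripheral nerve, had 4 gene body sites, each with a summit in all 6 libraries. Those in introns 11, 21 and 25 were higher in SAP30-KO1 cells without overlap. In intron 21 the ranks were 85.9, 87.0 and 86.7 in parental and 91.8, 95.2 and 94.4 in SAP30-KO1 cells. In intron 11 they were 93.3, 74.0 and 84.8 and then 95.4, 94.9 and 94.5, and in intron 25 they were 25.9, 27.6 and 23.9 and then 35.3, 49.3 and 33.5. The site in intron 27 went the other way, with 78.9, 58.0 and 41.2 and then 4.36, 35.1 and 49.8, and its groups overlapped. With a promoter window of 2.5 kb in place of 1 kb, the intron 21 site counted as a promoter summit of COL28A1. The median shift of all sites on the short arm of chromosome 7 was 3.42 points, and its part in these differences was not tested.

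In all, 8 of the 39 sites with a summit in every library were higher in SAP30-KO1 cells without overlap and 1 was lower, where 7.86% and 6.80% of the 10737 such sites at protein-coding genes did so. Gene body sites made up 29 of the 39 but 4418 of the 10737, so the 2 sets differ in kind and the shares are not directly comparable. Besides the 2 in LAMA1, the 3 in COL28A1 and the promoter site of COL7A1, the higher ones were in COL14A1 and COL19A1. In intron 45 of COL14A1, a FACIT gene, the ranks were 75.03, 69.2 and 59.0 in parental and 87.3, 93.9 and 92.5 in SAP30-KO1 cells. In intron 17 of COL19A1 they were 29.8, 70.6 and 70.0 and then 71.0, 90.5 and 79.3. The site that was lower was in intron 1 of LAMC1, with 94.9, 93.0 and 74.2 in parental and 64.8, 73.0 and 56.5 in SAP30-KO1 cells.

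**Figure D4:**
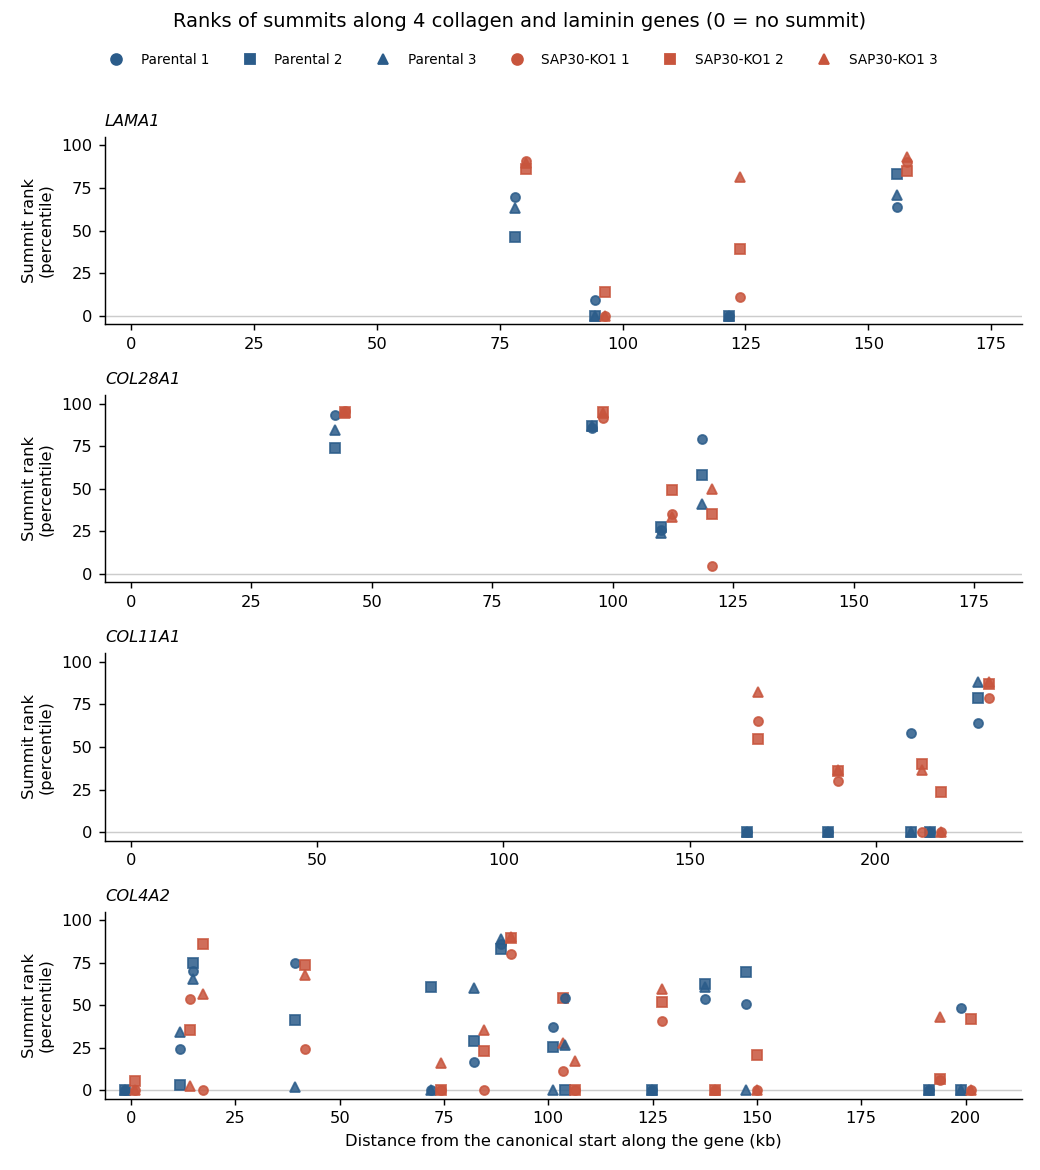
Summit rank (y axis, percentile within the library, 0 where no summit was found) at each open site of LAMA1, COL28A1, COL11A1 and COL4A2, by distance from the canonical start along the gene (x axis, kb), with 1 point per library and the groups set slightly apart. LAMA1 shows 3 sites with red points above blue ones, COL28A1 shows 3, and COL11A1 and COL4A2 show sites that 1 group lacks.

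The genes with the most gene body sites were COL4A2 with 12, COL19A1 with 9, and COL14A1 and COL27A1 with 8 each. The number of gene body summits in COL4A2 was 9, 10 and 7 in the parental and 6, 10 and 10 in the SAP30-KO1 libraries. COL19A1 had 3, 5 and 3 and then 5, 6 and 4, and COL14A1 had 3, 3 and 5 and then 6, 6 and 4. In COL27A1, a fibrillar collagen gene of cartilage, the numbers were 5, 4 and 5 and then 2, 2 and 3, lower in each SAP30-KO1 library, but each number counts a handful of summits.

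COL5A2, COL24A1 and LAMA3 followed with 7 sites each. COL5A2 had 5, 1 and 2 summits in the parental and 1, 3 and 2 in the SAP30-KO1 libraries, COL24A1 had 2, 1 and 1 and then 2, 5 and 3, and LAMA3 had 3, 1 and 3 and then 2, 3 and 2. None of the 3 separated the groups. The strongest site of COL4A2, in intron 4 and 89.8 kb from its start, ranked at 80.2 to 90.3 in the 6 libraries.

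Sites found in every library of 1 group and no library of the other were few. Of the 189 sites, 3 were found in parental cells alone, where the share among 33053 sites at protein-coding genes was 0.826%, and 6 in SAP30-KO1 cells alone, where it was 1.28%. All 9 lay in introns and were gene body sites, a kind that made up 153 of the 189 sites but 19150 of the 33053. The parental ones were in intron 17 of COL4A2 (ranks of 53.5, 62.3 and 60.4), intron 2 of COL4A1 (15.8, 54.6 and 42.7) and intron 14 of COL27A1 (44.6, 22.7 and 24.9). Collagen IV genes thus held 2 of the 3, but COL4A2 and COL4A6 also held sites of SAP30-KO1 cells alone. COL4A2 had the most gene body sites of any gene here, 12.

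The sites found in SAP30-KO1 cells alone were in COL11A1, COL4A2, LAMA1 and COL4A6. COL11A1 had one in intron 42 (65.0, 54.6 and 82.0), shown above with 2 GGAATG matches, and another in intron 49 (29.8, 36.0 and 36.7). Its gene body summits numbered 1, 0 and 0 in the parental and 2, 4 and 3 in the SAP30-KO1 libraries, while its promoter site was found in every library. COL4A2 had one in intron 11 (40.5, 51.6 and 59.8) and one in intron 40 (6.26, 6.72 and 43.0), so that within its 207.4 kb this gene held 1 site of parental cells alone and 2 of SAP30-KO1 cells alone. COL4A6 had one in intron 2 (44.4, 26.7 and 9.48).

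The chromosome arms of some of these genes had median differences away from that of the genome. Over sites with a summit in all 6 libraries, the median difference between SAP30-KO1 and parental ranks was 0.169 in the genome, 7.65 on the long arm of chromosome X, with COL4A6, 5.28 on the short arm of chromosome 1, with COL11A1, and -3.12 on the long arm of chromosome 13, with COL4A1 and COL4A2. The long arm of chromosome 9, with COL27A1, had a median of 0.236. These arm-wide values are single medians without a spread over libraries. Whether they bear on the sites of 1 group alone was not tested.

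The genes that fold, modify, secrete and cross-link collagen were open more often than the collagen genes themselves. Of 27 such genes, 13 had a promoter summit in all 6 libraries and 4 had none (ADAMTS2, LOXL4, P3H3 and P4HA3). MIA3, which loads procollagen into secretory vesicles, ranked at 94.5 to 98.9, and LOX, a lysyl oxidase that cross-links fibers, at 50.2 to 92.6, while SERPINH1, the collagen chaperone HSP47, had a summit in SAP30-KO1 replicate 2 alone, at 5.92.

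Of the 23 with any promoter summit, 2 were higher and 1 was lower in SAP30-KO1 cells without overlap, where the shares over all such genes were 6.01% and 4.58%. PLOD2, a lysyl hydroxylase that prepares stable cross-links, had ranks of 78.4, 46.5 and 53.9 in the parental and 94.1, 92.5 and 81.5 in the SAP30-KO1 libraries, 29.8 points higher. P3H2, a prolyl 3-hydroxylase, was 7.47 points higher, and PPIB, a prolyl isomerase of the folding complex, fell by 5.11 points. When ranks were taken within the chromosome arm, PLOD2 alone of the 3 kept the separation, and COLGALT2 (higher) and P3H1 (lower), which overlapped on the genome-wide ranks, separated the groups. The adjusted p of the exact permutation test was not below 0.945 for any gene.

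Of 18 genes for partners and receptors of the basement membrane, 4 had a promoter summit in all 6 libraries (DAG1, FREM2, PXDN and SPARC), 8 had none and none separated the groups. PXDN, the peroxidasin that cross-links collagen IV, ranked at 96.0 to 99.8. The genes of the nidogens (NID1 and NID2) and of perlecan (HSPG2), which join the laminin and collagen IV networks, had no promoter summit in any library.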

How the data were processed

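ATAC-seq libraries were sequenced as single-end reads and, per the labels and the study's methods, checked with FastQC 0.11.2, trimmed with Trim Galore 0.4.5, aligned to hg19 with Bowtie2 2.3.3.1 and freed of duplicates with Picard. Peaks were called with MACS2 2.1.0 at a q value of 0.05. Summits carry a −log10 q value from the authors' peak calling as their deposited score. Read counts were not used here, so depth is unknown and precision rests on the 3 libraries per group. Whether reads were shifted for the transposase offset was not given in the sources used here.

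Summit positions were compared with GENCODE release 44 mapped to GRCh37. Scores were converted to percentile ranks within each library, since separately called lists share no scale. Promoter summits lay within 1 kb of any start of the gene, and gene body summits inside the gene and more than 1 kb from each start. These were read as 2 sets, and promoter summits that also lie inside the gene were an alternative. Summits were widened by 250 bp on each side and merged into sites. Single genes were compared with exact permutation tests, two-sided, over the 20 assignments of 6 libraries, for which the smallest p is 0.1, and genes with a promoter summit in all libraries with limma 3.58.1 in R 4.3.3, with Benjamini-Hochberg adjustment over all genes. The labels do not say whether replicates were separate cultures, so p-values measure the spread between these libraries only. Between any pair of lists, 0.417% to 0.598% of summits had the identical position. Arms were split at the largest gap of the chromosome, and ranks were also taken among the summits of an arm.

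The fibrillar, basement membrane and other classes, the gene lists and the sites were chosen with earlier results of these data known. Each gene was named with its number of libraries, and values per library were given for genes whose groups did not overlap, the 4 genes per class with the highest mean promoter rank, the 5 genes with the most gene body sites and every site of 1 group alone. The check of ranks at sites with a summit in every library was added after the data were seen. Start sequences were read from the GRCh37 reference. The scripts were tested on simulated data. The values of 1 gene are counted but not reported here. Alternatives were q values of 0.01 and 0.0001, lists held to an equal number of top-ranked summits, windows of 500 bp and 2.5 kb, canonical starts, ranks within arms, other classes and site widths, a replicate block, log2 scores in limma, and each library left out in turn.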

Additional observations from a re-analysis of the deposited data

How the results depend on the processing

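With each library left out in turn, the difference between SAP30-KO1 and parental cells ran from 0.317 to 3.98 for all 56 genes, from -1.52 to 3.03 for fibrillar, from -0.884 to 7.04 for basement membrane and from 0.630 to 3.23 for other genes, and the lowest values of the first 3 were those without SAP30-KO1 replicate 2. The sign stayed the same for all 56 and for other genes, and turned without SAP30-KO1 replicate 2 for basement membrane genes and without that library or parental replicate 3 (-0.0415) for fibrillar genes. That of gene body summits per 10000 ran from -0.864, again without SAP30-KO1 replicate 2, to 1.12. Basement membrane genes stayed above fibrillar genes by 13.4 to 16.4 points. The number of genes with a summit in all libraries ran from 11 to 12. Genes higher without overlap ran from 2 to 6 (6 without parental replicate 2, 4 without SAP30-KO1 replicate 1), and lower ones from 0 to 1. LAMA1 and COL7A1 were among the higher genes each time, and the lower ones included LAMA4 and COL21A1. Sites of parental cells alone ran from 3 to 6 (6 without parental replicate 2 or SAP30-KO1 replicate 2, 5 without parental replicate 1), those of SAP30-KO1 cells alone from 6 to 10 (10 without SAP30-KO1 replicate 1), sites higher without overlap from 10 to 11 and sites lower from 2 to 6 (2 without parental replicate 2, 3 without parental replicate 1, 4 when any single SAP30-KO1 library was left out, 6 without parental replicate 3). With fewer libraries a group overlaps less often by construction. limma called 0 collagen and laminin genes each time.

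With the 29762 top-ranked summits of each library, 0 genes were higher and 1 was lower without overlap (LAMA4), 5 sites were higher and 3 were lower, gene body summits per 10000 differed by -0.224, and the difference in mean rank was 1.48 over all 56 and 1.497 over basement membrane genes. At a q value of 0.0001, 1 site was of parental cells alone and 0 sites were lower without overlap. With a promoter window of 500 bp, 7 genes had a summit in all 6 libraries and 1 was higher without overlap, and the difference of COL7A1 turned to -20.4. With a window of 2.5 kb, 13 genes had a summit in all 6 libraries and 3 were higher without overlap, COL28A1 among them. With canonical starts these were 5 and 1, and the fibrillar difference was -0.372. With promoter summits that also lie inside the gene they were 7 and 1, and basement membrane genes were 8.86 points above fibrillar genes. Without genes lacking a promoter summit the difference of the other genes was 5.28. With windows of 100 bp, 1 site was of parental cells alone and 5 sites were higher without overlap. When 1 library of the other group could have a summit, 7 sites were called for parental cells. The causes of these changes were not tested.

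Same-numbered libraries of the 2 groups did not deviate together over 6966 genes (r of -0.018, -0.0286 and 0.0115), so the numbers were not taken to pair them. With a replicate block the difference over all 56 genes was 2.61 and limma called 0 of them, as it did on log2 scores, where 19 of all genes were called. Under the alternatives 148 values stayed within the replicate spread or within 1.5 times the count and 34 did not.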
